A study of Homo sapiens with 12 samples.

Results

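The endothelin family was taken as 7 genes, the ligands EDN1, EDN2 and EDN3, the receptors EDNRA and EDNRB and the converting enzymes ECE1 and ECE2. They were found by gene symbol among the 38434 named genes of the count tables, and all 7 had a row in both tables. The members were chosen by pathway membership, with their measured counts in maspin and ctrl cells of both lines already known, so their values in that comparison are given as a description, with no test. EDN3 was 3.96-fold higher in LK2-maspin than in LK2-ctrl cells, while EDN1 and EDNRA were lower in LC-AI-maspin than in LC-AI-ctrl cells. The ligand genes used by the lines differed, with EDN3 predominating in LK-2 and EDN1 in RERF-LC-AI cells.

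Endothelins are short peptides that are cut from longer precursors, first by furin-type proprotein convertases and then by endothelin-converting enzymes. They act on a pair of G protein-coupled receptors, of which the EDNRA product prefers the EDN1 and EDN2 peptides and the EDNRB product binds all endothelins. EDN1 is best known as a vasoconstrictor made by endothelium and by several carcinomas, and EDN3 with EDNRB is needed for melanocyte and enteric neuron precursors.

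The 12 poly(A) libraries come from 4 groups of 3. Both lines, LK-2 as well as RERF-LC-AI, were derived from human lung squamous cell carcinoma and make little maspin (SERPINB5) of their own. LK2-maspin and LC-AI-maspin cells carry a lentiviral vector for maspin and the green fluorescent protein ZsGreen, and LK2-ctrl and LC-AI-ctrl cells carry the vector for ZsGreen alone. A group is 1 pool of cells that survived blasticidin. No source used here says whether its libraries were made from different cultures, so that p-values measure only the spread between these samples. LK-2 cells were grown in RPMI1640 and RERF-LC-AI cells in Eagle's minimum essential medium. Levels are given as CPM, the share of a library's reads on a gene scaled to a fixed total, after TMM scaling over the 12 libraries. As the RNA is from whole cultures, fewer cells that express a gene and less RNA per cell cannot be told apart.

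Total counts ran from 39802246 to 54941357 in LK-2 and from 50143577 to 65454432 in RERF-LC-AI libraries. SERPINB5 had 47.2, 47.4 and 44.8 CPM in LK2-maspin, against 1.90, 1.89 and 1.70 CPM in LK2-ctrl libraries, and 551, 516 and 470 CPM in LC-AI-maspin, against 0.291, 0.154 and 0.216 CPM in LC-AI-ctrl libraries, so that it fitted the labels in all 12 libraries. Squamous markers were high only in part. The p63 gene TP63 averaged 1.06 CPM in LK2-maspin, 1.18 CPM in LK2-ctrl, 0.771 CPM in LC-AI-maspin and 0.641 CPM in LC-AI-ctrl, and the lineage factor SOX2 averaged 398, 500, 0.249 and 0.39 CPM in the same groups. PERP, the highest of the 10 markers in each group, averaged 682, 744, 97.2 and 95.8 CPM. KRT5 averaged 6.91, 0.727, 0.0867 and 0.0426 CPM. The highest group means were 0.422 CPM for KRT14, 2.47 CPM for KRT6A and 0.337 CPM for KRT17. They were 8.98 CPM for PKP1, 7.02 CPM for DSG3 and 0.556 CPM for CLCA2. The endothelial cadherin gene CDH5 averaged at most 0.321 CPM and the melanocyte factor SOX10 at most 0.189 CPM in any group. Other genes of these marker lists were present at low levels, with group means of up to 3.98 CPM for EMCN, 3.82 CPM for TIE1 and 3.59 CPM for PECAM1 among the endothelial markers, and up to 9.86 CPM for MITF, 1.95 CPM for PAX3 and 1.74 CPM for MLANA among the melanocyte markers.

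Where the genes lie is given here by RefSeq annotation on GRCh38.p14. EDN3 spans chromosome 20 from 59300611 to 59325992, EDN1 spans chromosome 6 from 12230516 to 12297194 and EDN2 spans chromosome 1 from 41478775 to 41484683. EDNRA spans chromosome 4 from 147481097 to 147544954 and EDNRB spans chromosome 13 from 77895487 to 77975527. ECE1 spans chromosome 1 from 21217250 to 21345504 and ECE2 spans chromosome 3 from 184276022 to 184293031.

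EDN3 was the member with the largest difference between maspin and control. It had 89.2, 93.1 and 104 CPM in LK2-maspin libraries, against 25.3, 21.9 and 25.1 CPM in LK2-ctrl libraries. The lowest LK2-maspin library was thus far above the highest LK2-ctrl library. The log2 fold change was 1.99 (SE 0.09), or 3.96-fold, and it stayed between 1.92 and 2.03 in the 17 alternative fits. In RERF-LC-AI cells the gene was barely detected, with 2, 2 and 0 counts in LC-AI-maspin and 6, 2 and 0 counts in LC-AI-ctrl libraries. The libraries without a count allow up to 0.0485 CPM in LC-AI-maspin and 0.0647 CPM in LC-AI-ctrl, at 3 counts each. Both mates of a fragment were usually counted, so these limits are too low. The ratio of LC-AI-maspin to LC-AI-ctrl was 0.432, with an exact 95% interval of 0.0951 to 1.61 that covers counting error only. For the same reason this interval is too narrow, and with counts halved it was 0.039 to 3.01. EDN3 did not reach the minimum count for the fit in this line.

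**Figure D1:**
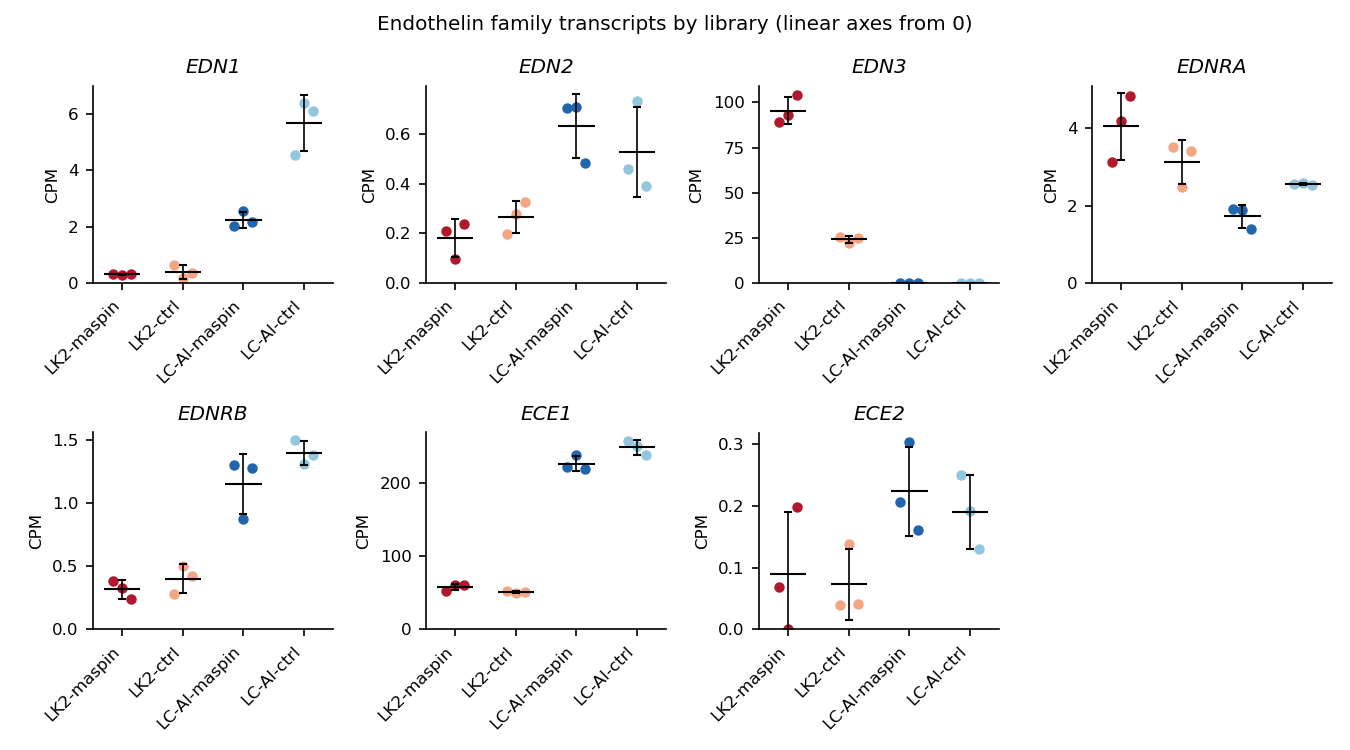
CPM of the 7 endothelin family genes (linear axes from 0), by group, with 1 point per library, the mean as a line and the SD as a bar (n = 3). EDN3 sits between 89.2 and 104 CPM in LK2-maspin and between 21.9 and 25.3 CPM in LK2-ctrl libraries, and EDN1 is highest in LC-AI-ctrl libraries.

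EDN1 showed its difference in the other line. It had 2.01, 2.56 and 2.16 CPM in LC-AI-maspin libraries, against 4.56, 6.40 and 6.10 CPM in LC-AI-ctrl libraries. All LC-AI-maspin libraries were below all LC-AI-ctrl libraries. The log2 fold change was -1.34 (SE 0.15), 2.53-fold lower with maspin, and ran from -1.47 to -1.24 in the 17 alternative fits. In LK-2 cells EDN1 was near the limit of detection, with 18, 12 and 16 counts in LK2-maspin and 32, 9 and 18 counts in LK2-ctrl libraries. Here the log2 fold change was -0.31 (SE 0.50) and turned to 0.23 without LK2-ctrl replicate 1. EDN2, which encodes the ligand nearest to EDN1 in sequence, had 12, 4 and 12 counts in LK2-maspin against 10, 16 and 16 counts in LK2-ctrl libraries (log2 fold change -0.53, SE 0.51), and 34, 42 and 30 counts in LC-AI-maspin against 22, 38 and 18 counts in LC-AI-ctrl libraries (0.25, SE 0.34). The groups of EDN2 overlapped in both lines.

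Summed over the 3 genes, ligand RNA averaged 95.9 ± 7.65 CPM in LK2-maspin and 24.7 ± 2.08 CPM in LK2-ctrl, and 2.90 ± 0.350 CPM in LC-AI-maspin and 6.27 ± 1.04 CPM in LC-AI-ctrl (SD, n = 3 each). EDN3 made up 99.4 to 99.6% of this sum in LK2-maspin and 96.8 to 98.1% in LK2-ctrl libraries. EDN1 made up 72.9 to 81.7% in LC-AI-maspin and 88.7 to 94.0% in LC-AI-ctrl libraries. The sum therefore followed 1 gene in each line, and that gene was not the same.

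The promoter of EDN1 is shown because the gene has been studied through its short upstream region and because factors that act there were among the genes measured. RefSeq lists 3 start windows of EDN1 on GRCh38.p14, and the one printed, chr6:12290111-12290410 on the plus strand, is the one with a TATAAA match. Capitals mark matches on either strand to GATAA (here TTATC, from position -136 of the start site), ACGTG (here CACGT, -123), TGACTAA (-108) and TATAAA (-31), letters that resemble GATA, hypoxia, AP-1 and TATA elements. None of these matches overlap.
EDN1: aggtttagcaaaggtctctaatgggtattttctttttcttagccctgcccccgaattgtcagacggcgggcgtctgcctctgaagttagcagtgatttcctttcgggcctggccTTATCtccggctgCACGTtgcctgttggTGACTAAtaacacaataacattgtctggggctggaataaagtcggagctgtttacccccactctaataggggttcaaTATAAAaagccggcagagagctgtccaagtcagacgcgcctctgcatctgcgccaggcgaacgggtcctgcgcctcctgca
Of all 35116 RefSeq windows of the same length, 1.90% held TGACTAA, 11.5% TATAAA, 21.4% ACGTG and 22.7% GATAA. The consensus TGANTCA, held by 7.71% of windows, was also searched and was not among the letters of this window.

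Of the receptors, EDNRA had more RNA in LK2-maspin, with 3.13, 4.20 and 4.85 CPM, against 3.52, 2.48 and 3.42 CPM in LK2-ctrl libraries. These groups overlapped, and the log2 fold change was 0.37 (SE 0.20). In RERF-LC-AI cells EDNRA had 1.90, 1.89 and 1.39 CPM in LC-AI-maspin, against 2.56, 2.60 and 2.54 CPM in LC-AI-ctrl libraries, which did not overlap. The log2 fold change was -0.58 (SE 0.18), 1.49-fold lower with maspin, and ran from -0.65 to -0.44 over the 17 alternative fits. EDNRB had 0.381, 0.332 and 0.238 CPM in LK2-maspin against 0.277, 0.503 and 0.425 CPM in LK2-ctrl libraries (log2 fold change -0.34, SE 0.41), where the groups overlapped. In RERF-LC-AI cells it had 1.30, 0.875 and 1.28 CPM in LC-AI-maspin against 1.5, 1.31 and 1.38 CPM in LC-AI-ctrl libraries (-0.28, SE 0.23), where the groups did not overlap, by a margin of less than 0.01 CPM. The antisense gene EDNRB-AS1 had 0.0519, 0 and 0.0397 CPM in LK2-maspin against 0.198, 0.0868 and 0.223 CPM in LK2-ctrl libraries, which did not overlap, and 0, 0.0337 and 0.0646 CPM in LC-AI-maspin against 0, 0 and 0.0647 CPM in LC-AI-ctrl libraries. Its part in the EDNRB values was not tested. Whether the counting used the strand is not stated, so that reads of a gene and of its antisense partner may not be told apart.

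ECE1, the main endothelin-converting enzyme, was the most abundant of the 7 genes in RERF-LC-AI cells. It had 52.6, 60.2 and 60.5 CPM in LK2-maspin, against 52.1, 49.5 and 50.4 CPM in LK2-ctrl libraries, with a log2 fold change of 0.19 (SE 0.07). In RERF-LC-AI cells it had 221, 238 and 218 CPM in LC-AI-maspin against 257, 249 and 237 CPM in LC-AI-ctrl libraries, with a log2 fold change of -0.13 (SE 0.05). The LK-2 groups did not overlap and the RERF-LC-AI groups did, and both differences were small beside those of EDN3 and EDN1. The antisense gene ECE1-AS1 averaged 0.849 CPM in LK2-maspin and 1.01 CPM in LK2-ctrl, little beside ECE1.

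ECE2 counts are uncertain. The gene shares its exons with the read-through gene EEF1AKMT4-ECE2 (chromosome 3 from 184249672 to 184293031), and only 0 to 15.2% of the counts of both rows stood in the ECE2 row. ECE2 had 4, 0 and 10 counts in LK2-maspin and 2, 8 and 2 counts in LK2-ctrl libraries, too few for the fit, and 10, 18 and 10 counts in LC-AI-maspin and 12, 10 and 6 counts in LC-AI-ctrl libraries (log2 fold change 0.23, SE 0.52), a value that turned to -0.06 without LC-AI-maspin replicate 2. EEF1AKMT4-ECE2 had 3.17, 3.06 and 2.40 CPM in LK2-maspin against 3.08, 2.43 and 2.10 CPM in LK2-ctrl libraries, and 2.48, 3.37 and 2.07 CPM in LC-AI-maspin against 1.39, 2.31 and 1.90 CPM in LC-AI-ctrl libraries. Neither difference passed edgeR's quasi-likelihood test (adjusted p = 0.997 and 0.131). In RERF-LC-AI cells the difference of 0.50 (SE 0.20) did pass with the replicate number as a block (0.50, edgeR adjusted p = 0.0439) and without LC-AI-ctrl replicate 2 (0.68, edgeR adjusted p = 0.0441). With both rows summed, chosen after the data were seen, the log2 fold change was 0.19 (SE 0.17) for LK2-maspin over LK2-ctrl and 0.47 (SE 0.19) for LC-AI-maspin over LC-AI-ctrl.

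**Figure D2:**
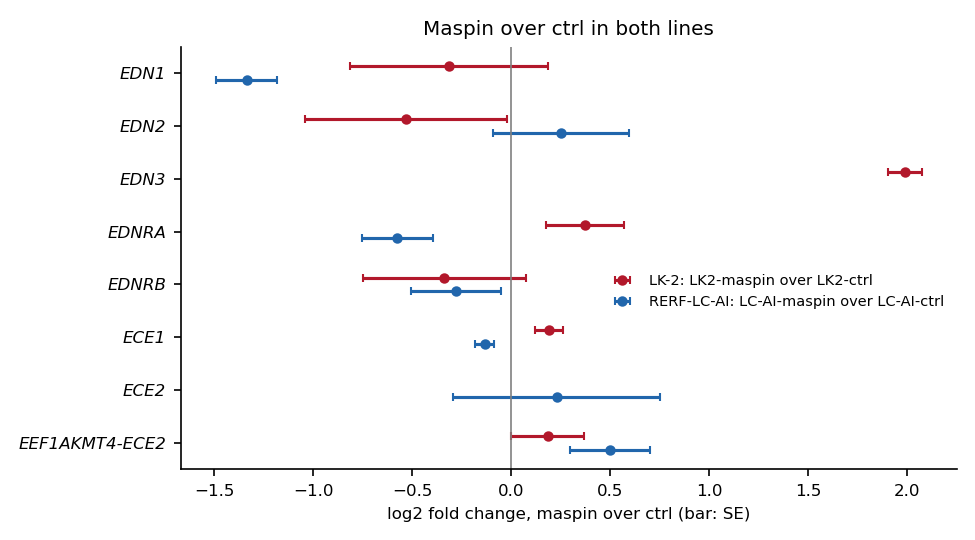
Log2 fold change with maspin (x axis, bars show the SE) of each family gene and of the read-through gene EEF1AKMT4-ECE2, by line. EDN3 stands at 1.99 in LK-2 cells and EDN1 at -1.34 in RERF-LC-AI cells, and genes with too few counts for a fit in a line have no point there.

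Taken as a count, 1 of the 6 members that had enough reads in LK-2 cells was called higher with maspin (EDN3), where edgeR called 0.533% of all genes tested (0.373% higher and 0.16% lower). In RERF-LC-AI cells 2 of 6 were called lower (EDN1 and EDNRA), where 10.5% of all genes were called (4.01% higher and 6.53% lower). The call of EDN1 held in all 17 alternative fits and that of EDNRA in 9 of 17. Groups did not overlap for 2 members in LK-2, EDN3 and ECE1, both higher, and for 3 members in RERF-LC-AI cells, EDN1, EDNRA and EDNRB, all lower. Over all genes the groups did not overlap for 11.6% of LK-2 (6.1% higher and 5.45% lower) and 25% of RERF-LC-AI (11.8% higher and 13.3% lower). The median log2 fold change of the members was -0.06 for LK-2 and -0.21 for RERF-LC-AI, beside -0.001 and 0.01 over all genes tested. The members were chosen with this comparison in view, so these counts describe them and carry no evidence. The 2 comparisons share no libraries, and the maspin effect differed between the lines for 1.76% of all genes tested. None of the 7 members was among them by edgeR's quasi-likelihood test. DESeq2, edgeR's likelihood ratio test and the fit with the replicate number as a block each called 3 (EDN3, EDNRA and ECE1). In the same order, these alternatives called 1024, 884 and 2273 of all genes. The difference is built from the values on which the members were chosen, so these calls describe them and carry no evidence. The maspin effect in LK-2 minus that in RERF-LC-AI cells was 1.04 (SE 0.45) for EDN1, 0.95 (SE 0.27) for EDNRA, 0.32 (SE 0.09) for ECE1 and -0.78 (SE 0.59) for EDN2 on the log2 scale. With 1 library left out it ran from 0.64 (without LK2-ctrl replicate 2) to 1.60 (without LK2-ctrl replicate 1) for EDN1, and from -1.10 (without LC-AI-ctrl replicate 2) to -0.48 (without LK2-maspin replicate 2) for EDN2. For EDN3 it was 3.12 (SE 0.97), which rests on 12 counts in 6 RERF-LC-AI libraries and fell to 1.82 without LC-AI-ctrl replicate 1.

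The summed level of the 8 fibroblast markers was lower in LC-AI-maspin, at 61.3 to 70.6 CPM, against 78.3 to 104 CPM in LC-AI-ctrl libraries, with no marker at 0. Most of this came from COL1A2, which averaged 16.4 CPM in LC-AI-maspin and 31.9 CPM in LC-AI-ctrl, and PDGFRB (2.84 CPM in LC-AI-maspin and 8.54 CPM in LC-AI-ctrl). COL1A1 (6.92 CPM in LC-AI-maspin and 6.33 CPM in LC-AI-ctrl), DCN (0.621 and 0.436 CPM in the same order) and LUM (0.0936 and 0.0277 CPM) were not lower. Their part in the result was not tested. The 9 endothelial markers summed to 8.75 to 10.2 CPM in LC-AI-maspin and 7.94 to 9.42 CPM in LC-AI-ctrl libraries. Beside EDN3, the 7 melanocyte markers summed to 11.9 to 16.9 CPM in LK2-maspin and 9.90 to 15.2 CPM in LK2-ctrl libraries, ranges that overlap. MITF averaged 9.43 CPM in LK2-maspin and 7.02 CPM in LK2-ctrl and made up most of the sum. The part of these markers in the EDN3 values was not tested.

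The lines were then compared without maspin, LK2-ctrl over LC-AI-ctrl. The choice of genes rested on maspin against ctrl within each line, but the ctrl counts of both lines were also known when it was made. The p-values of the members in this comparison therefore describe them and carry no evidence. Line, culture medium, count table and the SAMtools version that the authors used for each line cannot be told apart here. Of the 7 members 5 passed the test, EDN3 higher in LK2-ctrl and EDN1, EDNRB, ECE1 and EDN2 lower, and over all genes tested 61.9% passed, 31.4% higher and 30.5% lower, so such a share is near the background. EDN3 entered this fit only through the LK-2 libraries, where it is high, so its difference is given as counts with no p.

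EDN3 averaged 24.1 ± 1.89 CPM in LK2-ctrl and 0.0544 ± 0.0639 CPM in LC-AI-ctrl (SD, n = 3 each), from 3783 and 8 counts. The ratio was 439, with an exact 95% interval of 223 to 1018 (counting error only), and the log2 fold change was 8.72. With counts halved, as both mates of a fragment were usually counted, the interval was 171 to 1614. EDN1 was the reverse, at 0.384 ± 0.239 CPM in LK2-ctrl and 5.69 ± 0.992 CPM in LC-AI-ctrl, with a log2 fold change of -3.91 (SE 0.28, edgeR adjusted p = 1.57e-10), 15-fold lower in LK2-ctrl. ECE1 averaged 50.7 ± 1.33 CPM in LK2-ctrl and 248 ± 9.93 CPM in LC-AI-ctrl, 4.89-fold lower in LK2-ctrl (log2 fold change -2.29, SE 0.07, edgeR adjusted p = 5.90e-17). For each of these 3 genes no library of 1 line reached the range of the other.

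EDNRB averaged 0.402 ± 0.115 CPM in LK2-ctrl and 1.40 ± 0.0959 CPM in LC-AI-ctrl (log2 fold change -1.78, SE 0.28, edgeR adjusted p = 1.47e-05). EDNRA averaged 3.14 ± 0.572 CPM in LK2-ctrl and 2.57 ± 0.0268 CPM in LC-AI-ctrl, and the difference of 0.29 (SE 0.19, edgeR adjusted p = 0.194) has a 95% interval of -0.08 to 0.65. It passed the test with scaling by upper quartile (edgeR adjusted p = 0.0243) or by the library total alone (0.0279), scalings that moved the median over all genes by 0.22. EDN2 averaged 0.266 ± 0.0638 CPM in LK2-ctrl and 0.526 ± 0.181 CPM in LC-AI-ctrl (log2 fold change -0.98, SE 0.41, edgeR adjusted p = 0.0424), a call that 9 of its 21 alternatives at this threshold lost, with adjusted p from 0.0211 to 0.226. ECE2 had a log2 fold change of -1.32 (SE 0.78), given with no p, as it had too few counts for the fit of LK-2 cells alone. EEF1AKMT4-ECE2 had 0.44 (SE 0.22, edgeR adjusted p = 0.0901), and the sum of the rows gave 0.34 (SE 0.21). The direction at this locus thus depends on how its reads are divided.

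Levels of different genes were set side by side per kilobase of the GENCODE v44 canonical transcript. In LK2-maspin cells EDN3 stood first at 38.9 ± 3.10 CPM per kb, ahead of ECE1 at 11.4 ± 0.889 and EDNRA at 1.02 ± 0.218 CPM per kb. In LK2-ctrl cells ECE1 at 10.0 ± 0.262 and EDN3 at 9.83 ± 0.771 CPM per kb overlapped, and EDNRA followed at 0.791 ± 0.144 CPM per kb (SD, n = 3 each). EDN1, EDN2, EDNRB and ECE2 were at 0.213 CPM per kb or less in both groups, and of these EDN1 and EDN2 overlapped in each group. EDNRB also overlapped with EDN2 and with ECE2 in LK2-maspin cells, and with EDN1 in LK2-ctrl cells.

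In LC-AI-maspin cells ECE1 stood first at 44.5 ± 2.08 CPM per kb, followed by EDN1 at 1.1 ± 0.140, EDN2 at 0.504 ± 0.102, EDNRA at 0.435 ± 0.0736 and EDNRB at 0.268 ± 0.0557 CPM per kb, of which EDN2 and EDNRA overlapped. In LC-AI-ctrl cells the order was ECE1 at 48.9 ± 1.96, EDN1 at 2.79 ± 0.487, EDNRA at 0.646 ± 0.00674, EDN2 at 0.419 ± 0.145 and EDNRB at 0.324 ± 0.0223 CPM per kb, of which EDN2 and EDNRB overlapped. ECE2 and EDN3 were last in both groups, and their ranges overlapped in LC-AI-ctrl cells. Most reads of the ECE2 locus stood in the row of EEF1AKMT4-ECE2. That row was at 0.766 CPM per kb in LC-AI-maspin and 0.542 CPM per kb in LC-AI-ctrl. It was at 0.835 CPM per kb in LK2-maspin and 0.737 CPM per kb in LK2-ctrl. The place of ECE2 in each line thus depends on how these reads are divided.

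**Figure D3:**
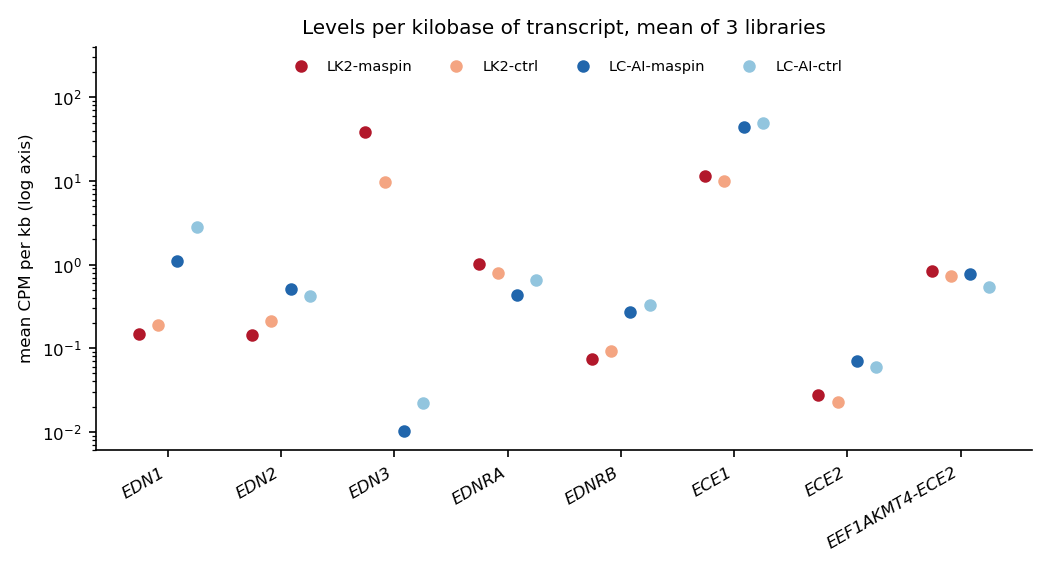
Mean CPM per kb of canonical transcript (log axis, mean of 3 libraries) of the family genes and EEF1AKMT4-ECE2 in LK2-maspin, LK2-ctrl, LC-AI-maspin and LC-AI-ctrl cells. EDN3 runs from 38.9 CPM per kb in LK2-maspin down to 0.0102 CPM per kb in LC-AI-maspin, the widest range of the genes drawn.

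The other genes of the pathway were counted in 5 lists of 88 genes in all. None of the 85 tested passed edgeR's test in LK-2 cells, while 12 had an unadjusted p under 0.05 (14.1%, beside 6.36% of all genes tested). With the replicate number as a block 10 passed (FOSL2, GNAI1, GNAQ, GNAS, ITPR2, ITPR3, KLF4, MITF, MME and SHC1). DESeq2 and edgeR's likelihood ratio test each called 1, the calcium channel gene ITPR2. In RERF-LC-AI cells 33 of 84 passed, 8 higher and 25 lower, or 39.3% beside 10.5% of all genes tested. The calls over all genes were 1010 higher and 1645 lower in that line (38.0% higher), and 48.5% and 52.2% of calls were higher with scaling by upper quartile or by the library total alone. Pathway calls remained mostly lower with these scalings, at 12 higher and 23 lower with the upper quartile and 11 higher and 21 lower with the library total.

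Receptor coupling, meaning G proteins, phospholipase C beta, arrestins and their regulators, held 2 higher and 10 lower genes of 22 in RERF-LC-AI cells. ARRB1, which encodes beta-arrestin 1, averaged 10.7 ± 0.327 CPM in LC-AI-maspin and 19.8 ± 1.84 CPM in LC-AI-ctrl (log2 fold change -0.89, SE 0.08, edgeR adjusted p = 1.18e-08). RGS3, a regulator that speeds up G protein shut-off, averaged 21.4 ± 0.341 CPM in LC-AI-maspin and 33.1 ± 0.809 CPM in LC-AI-ctrl (-0.63, SE 0.06, edgeR adjusted p = 3.70e-08). PLCB2, a phospholipase C that makes the calcium-releasing messenger, was lower by the same test (-0.55, SE 0.07).

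Downstream kinases and channels held 3 higher and 5 lower genes of 24. The calcium-activated tyrosine kinase gene PTK2B averaged 10.1 ± 0.684 CPM in LC-AI-maspin and 5.32 ± 0.912 CPM in LC-AI-ctrl (log2 fold change 0.92, SE 0.12, edgeR adjusted p = 2.25e-06). The paper had already reported PTK2B as higher from these same libraries, so this value is no independent evidence. ITPR2 fell by 0.47 (SE 0.07). Among factors of EDN1 transcription 2 were higher and 6 lower of 22. JUN, an AP-1 subunit, averaged 168 ± 9.72 CPM in LC-AI-maspin and 205 ± 4.58 CPM in LC-AI-ctrl (-0.29, SE 0.05, edgeR adjusted p = 1.03e-04), but did not pass with all 12 libraries in 1 fit (adjusted p = 0.154). FOXO1 was lower (-0.74, SE 0.12) and PPARG, a nuclear receptor, higher (0.33, SE 0.05).

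Processing and clearance held 1 higher and 3 lower genes of 9. MME, the gene of neprilysin, which degrades endothelins, averaged 24.6 ± 3.61 CPM in LC-AI-maspin and 16.6 ± 0.155 CPM in LC-AI-ctrl (log2 fold change 0.57, SE 0.08, edgeR adjusted p = 2.04e-05). ECEL1, which is related to ECE1 in sequence, averaged 0.313 ± 0.132 CPM in LC-AI-maspin and 0.891 ± 0.275 CPM in LC-AI-ctrl (-1.51, SE 0.37, edgeR adjusted p = 0.00631). That call was lost without LC-AI-maspin replicate 3 (adjusted p = 0.0606) and without LC-AI-ctrl replicate 3 (0.0743). PCSK7, a proprotein convertase gene, was lower (-0.28, SE 0.06) and did not pass with all 12 libraries in 1 fit (adjusted p = 0.0725). Of the neural crest partners of EDN3 and EDNRB, KIT, a receptor of melanocyte precursors, was the 1 of 7 that passed. It averaged 2.36 ± 0.173 CPM in LC-AI-maspin and 7.80 ± 2.44 CPM in LC-AI-ctrl (log2 fold change -1.72, SE 0.17, edgeR adjusted p = 3.24e-08).

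**Figure D4:**
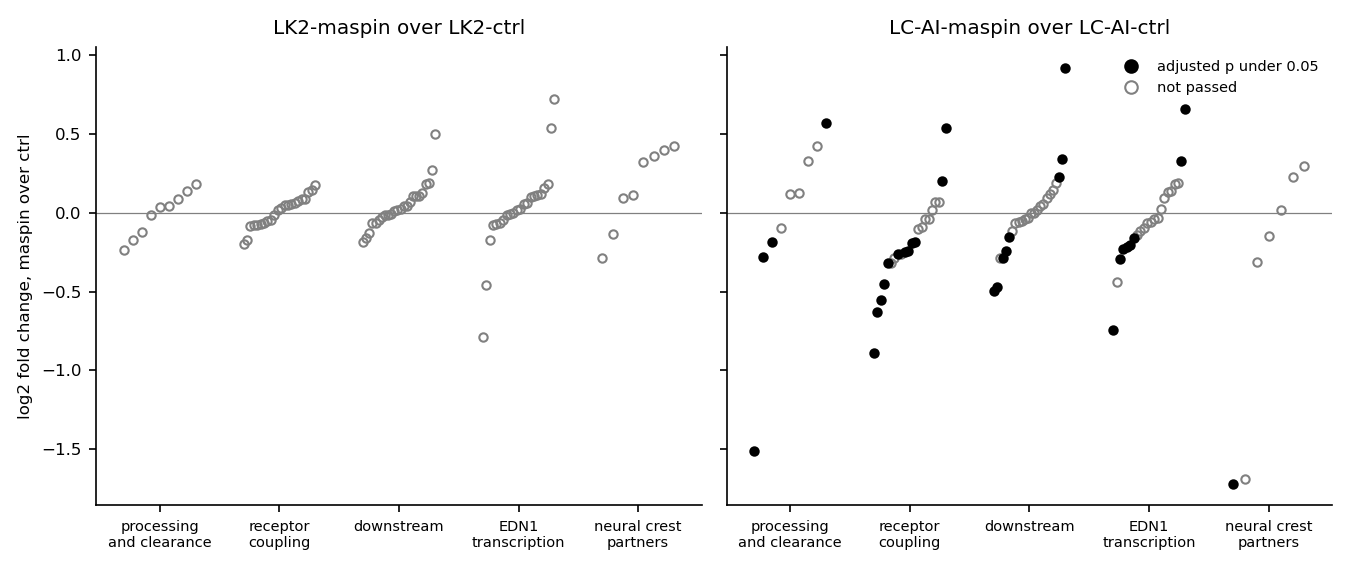
Log2 fold change with maspin (y axis) of each pathway gene tested, by list, in LK-2 (left) and RERF-LC-AI cells (right). Filled points passed edgeR's test at an adjusted p under 0.05, which 0 of 85 genes did in LK-2 and 33 of 84 in RERF-LC-AI cells.

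Between the lines 77 of 86 pathway genes passed, 30 higher and 47 lower in LK2-ctrl, or 89.5% beside 61.9% of all genes. All 24 downstream genes passed. The phospholipase gene PLCB1 averaged 55.4 ± 0.926 CPM in LK2-ctrl and 0.656 ± 0.190 CPM in LC-AI-ctrl (log2 fold change 6.41, SE 0.14, edgeR adjusted p = 5.04e-19). The inhibitory G protein gene GNAI1 was 14.4-fold higher in LK2-ctrl, at 341 CPM against 23.8 CPM in LC-AI-ctrl. Another inhibitory G protein gene, GNAI2, went the other way, at 52.2 CPM in LK2-ctrl and 326 CPM in LC-AI-ctrl, 6.25-fold lower in LK2-ctrl. The adaptor gene SHC1 averaged 65.0 ± 2.98 CPM in LK2-ctrl and 1539 ± 37.9 CPM in LC-AI-ctrl (-4.57, SE 0.06, edgeR adjusted p = 6.55e-22), and the protein kinase C gene PRKCA was 17.7-fold lower in LK2-ctrl. Of the factors named in connection with EDN1, PPARG and the AP-1 gene FOSL1 were 77.8-fold and 55.3-fold lower in LK2-ctrl, while KLF4 was 9.48-fold higher. The part of these factors in the EDN1 values was not tested. Of the convertases, PCSK6 was 19.4-fold higher in LK2-ctrl and FURIN was 2.72-fold lower there.

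The nearest genes tested on either side of the members did not pass the test in either line. With the replicate number as a block EIF4G3, next to ECE1, passed in LK-2 (log2 fold change 0.14, edgeR adjusted p = 0.0154), as did the read-through gene of ECE2 in RERF-LC-AI cells. The neighbours of EDN3 are ZNF831, at 41.5 kb, and PHACTR3, at 252 kb, with log2 fold changes of -0.27 (edgeR adjusted p = 0.968) and -0.34 (above 0.99) in LK-2 cells. HIVEP1, at 18.5 kb from EDN1, had a log2 fold change of -0.03 (edgeR adjusted p = 0.862) in RERF-LC-AI cells. Over the 6 LK-2 libraries the genes whose levels went most closely with EDN3 were ZNF260 (Pearson r = 0.995), COL26A1 (0.995) and SERPINB5 (0.994), with 298 of 17616 genes over 0.9. Over the 6 RERF-LC-AI libraries those nearest to EDN1 were CYC1 (Pearson r over 0.999), SMC2 (0.999) and ANKRD1 (0.998), with 1372 of 16743 genes over 0.9. The 6 libraries fall into 2 groups in each line, so any gene that differs between maspin and ctrl scores high, and the values are a description.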

How the data were processed

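Strand-specific poly(A) libraries were sequenced on an Illumina NovaSeq instrument. Before mapping to GRCh38.p13 with BWA 0.7.17, the authors trimmed the reads (Trimmomatic 0.39). SAMtools was version 1.12 for the LK-2 table and 1.10 for the other table. The deposited counts are whole numbers of mapped reads per gene, in 1 table per line. The tool that counted them, not given in the sources used here, is unknown. The authors also deposited signal columns, scaled by TMM with edgeR 3.16.5 or to the library total, which were not used. Of counts from 1 to 9, 23.9 to 26.2% were odd, which shows that both mates of a fragment were usually counted. The 646 lines without a gene symbol (0.292 to 0.416% of counts) were left out.

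Maspin was set against ctrl within each line by the quasi-likelihood test of edgeR 4.0.16 in R 4.3.3 (TMM, default filter with minimum count 10 and minimum total 15, Benjamini-Hochberg adjustment at 0.05). LK2-ctrl was set against LC-AI-ctrl, and the difference of the maspin effects was estimated, in 1 fit of the 12 libraries. SE values were taken as the absolute log2 fold change divided by the root of F. The minimum count for a limit was 3 counts, and exact intervals have a confidence of 95%. Symbols were matched to RefSeq by Entrez ID (36676 of 38434), transcript lengths are from GENCODE v44, and promoters are from RefSeq. Promoters of EDN3 and ECE2 were not used here. Alternatives were DESeq2 1.42.0, the likelihood ratio test that the paper names (also unfiltered), scaling by RLE, by upper quartile or by the library total alone, no filter, a filter of at least 10 counts in each library, halved counts, a replicate block, 1 fit of all 12 or of only the ctrl libraries, a threshold of 0.01, and the omission of each library. The code was tested on simulated data. Figures were drawn with Python 3.11.15 and matplotlib 3.10.9.

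The members, lists, tests and alternatives were chosen with earlier results of these data known. Named are all members, SERPINB5, their neighbours, in each list and comparison the 3 genes with the smallest adjusted p, and the 3 genes most like a member over the 6 libraries of a line (log2 CPM with 0.5 added, mean of at least 1 CPM). One gene that this rule names is not reported here.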

Additional observations from a re-analysis of the deposited data

Results flagged for a closer look

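Among the 29 named genes outside the family that could be compared, the maspin effect differed between the lines for 6 by the interaction test of edgeR (adjusted p under 0.05). Over all genes tested it differed for 1.76%. The difference, LK-2 minus RERF-LC-AI on the log2 scale, was 0.81 for ARRB1 (adjusted p = 0.0148), 0.90 for FOXO1 (0.00466), 1.59 for KIT (6.24e-04) and 0.65 for RGS3 (6.91e-04). It was 0.97 for ITPR2 (adjusted p = 2.52e-04), with a log2 fold change of 0.50 in LK-2 cells, which missed the threshold there, and of -0.47 in RERF-LC-AI cells. For SERPINB5 itself, the gene that the vector carries, it was -6.52 (adjusted p = 3.22e-14). The others were named for their small adjusted p in RERF-LC-AI cells, a comparison from which this difference is built. The count and these p-values therefore describe them and carry no evidence.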

How the results depend on the processing

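Over 17 alternatives the log2 fold change of EDN3 in LK-2 ran from 1.92 to 2.03 and that of EDN1 in RERF-LC-AI cells from -1.47 to -1.24, which describes genes chosen on these values. The RERF-LC-AI members called fell to 1, EDN1, with upper-quartile factors, library size only, all 12 libraries in 1 fit and an adjusted p under 0.01. With 1 library left out EDN1 was always called, and EDNRA only without LC-AI-maspin replicate 1. Without LC-AI-maspin replicate 2, ECE1 was called beside EDN1. DESeq2 and the replicate block added ECE1. In LK-2 cells the 140 genes called became 314 and 279 with the likelihood ratio test with and without the filter, 272 with DESeq2, 251 with all 12 libraries in 1 fit, 70 at 0.01 and 50 to 199 without 1 library. The pathway genes called there became 1 with either likelihood ratio test, with DESeq2 and with no filter (ITPR2), 2 with all 12 libraries (FOSL2 and ITPR2) and 0 to 1 without 1 library. In RERF-LC-AI cells the 2655 genes called became 1163 with all 12 libraries, where pathway calls fell to 18, 1642 at 0.01 and 1764 to 2594 without 1 library. The 494 differences between lines became 884 and 894 with the likelihood ratio test with and without the filter, 1024 with DESeq2 and 275 to 754 without 1 library. Between the lines, 2 members passed with at least 10 counts in every library, as fewer were tested. With the ECE2 and read-through rows summed, the line difference turned to 0.34 and the difference of the maspin effects to -0.29. The cause of the other changes was not tested.

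Deviations of libraries with the same replicate number from their group means correlated across all genes tested at 0.154, 0.0144 and 0.164 in LK-2 and 0.0437, 0.0533 and 0.00167 in RERF-LC-AI cells, and the fit without the block was kept. Over genes with a mean log2 CPM over 3 the values were 0.744, 0.113 and 0.750, and 0.369, 0.39 and 0.203, though LK2-ctrl replicate 2 went more with LK2-maspin replicate 1 (0.180). With the replicate block 1190 genes, 2 members (EDN3 and ECE1) and 10 pathway genes were called in LK-2, 4081 genes in RERF-LC-AI cells and 2273 differences between the lines.

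Depth limits the low members. EDN1, EDN2 and EDNRB in LK-2 cells and EDN3 in RERF-LC-AI cells had 0 to 32 counts per library, and the number of fragments is lower still.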
